A study of Mus musculus with 2 samples.

Results

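Expression of 38 genes of DNA synthesis and cell division was examined in single cells of the postischemic mouse kidney. The genes were taken from a list of S-phase and G2/M symbols, and all 38 were found among the 32285 genes of the files. Of these, 15 act in S phase, 21 act in G2 and mitosis, and 2, Hmgb2 and Stmn1, are also expressed outside division and were kept apart. The list was set by gene function, with earlier results of these data known.

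Both kidneys came from 9-week-old male C57BL/6 mice that underwent bilateral renal ischemia-reperfusion and were sacrificed 24 h later. The control mouse received saline and the treated mouse received JPI-289, a PARP inhibitor, at 100 mg/kg, into the peritoneum just before reperfusion. Each group was 1 mouse and 1 droplet library made with a 5′ kit, so no difference between the groups could be tested. All intervals given are 95% intervals that cover counting error only.

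Cells that enter S phase raise the enzymes that make deoxynucleotides and the machinery that licenses, unwinds and copies DNA. Cells in G2 and mitosis raise cyclins, mitotic kinases, and the motors and kinetochore proteins of the spindle. In the adult kidney few tubular cells divide, and surviving proximal tubules (PTs) are known to re-enter the cycle in the days after ischemic injury. In many S-phase promoters E2F factors bind short GC-rich sites, while G2/M promoters often hold a cell cycle genes homology region (CHR), bound by the MuvB complexes, near CCAAT boxes bound by NF-Y.

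The promoters of the members were read from RefSeq for build GRCm38.p6, from 250 bases before to 50 after the start, and 32 of 38 members matched an entry. The motifs searched on both strands were TTTGAA for the CHR, CCAAT for the CCAAT box, and for E2F the heptamer TTCGCGC, a second form that reads TTGGCGC, and another that reads TTCCCGC. These E2F forms can overlap on opposite strands. A CHR was found in 13 of 18 matched G2/M members (72.2%) and in 2 of 13 S-phase members (15.4%), beside 20.2% of 27025 genes. A CHR and a CCAAT box stood together in 12 of the 18 G2/M members (66.7%), beside 8.97% of all genes. An E2F motif was found in 7 of 13 S-phase members (53.8%) and 3 of 18 G2/M members (16.7%), beside 9.20% of all genes. The lists of other cycle genes gave like shares, with a CHR in 26 of 40 other G2/M genes and an E2F motif in 22 of 33 other S-phase genes. CCAAT boxes were frequent in both roles, in 15 of 18 G2/M and 10 of 13 S-phase members, beside 41.1% of all genes. These are matches of letters and not measured binding sites. Tk1 and Tyms, enzymes of thymidylate supply, held none of the 3 motifs in this window.

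**Figure D1:**
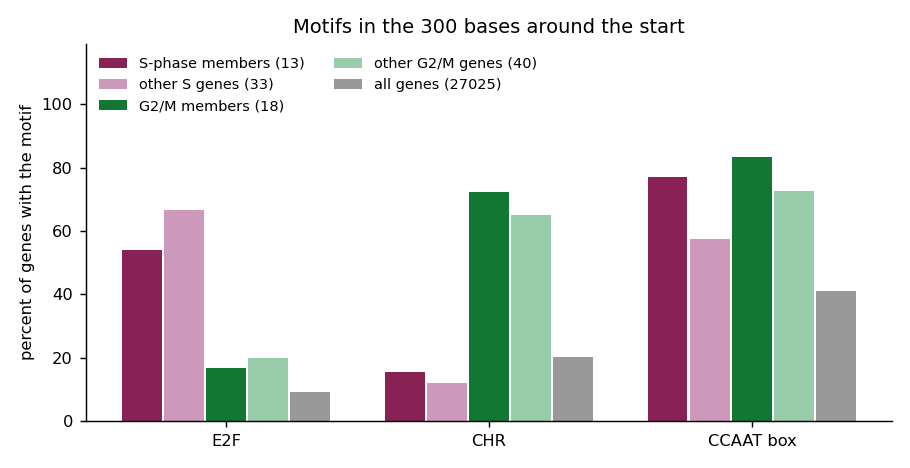
Percent of genes (y axis) whose 300-base window around the start held an E2F, CHR or CCAAT motif (x axis), for S-phase and G2/M members, other genes of each phase, and all genes. The CHR bars stand at 72.2% for G2/M members against 20.2% for all genes, and the E2F bars at 53.8% for S-phase members against 9.20%.

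The 120 bases before the start are shown for 5 G2/M members to let the CHR and its neighbouring CCAAT boxes be seen. Capitals mark every motif match in the window, 5′ to 3′ on the strand of the gene, and a match on the other strand reads TTCAAA or ATTGG.
Top2a (chr11:99024190-99024309, minus strand): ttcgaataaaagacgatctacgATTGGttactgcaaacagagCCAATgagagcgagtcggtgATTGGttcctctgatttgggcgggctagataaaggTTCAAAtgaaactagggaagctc
Cdc20 (chr4:118437344-118437463, minus strand): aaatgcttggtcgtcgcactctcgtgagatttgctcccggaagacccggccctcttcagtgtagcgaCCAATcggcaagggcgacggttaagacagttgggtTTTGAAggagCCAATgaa
Cdk1 (chr10:69352913-69353032, minus strand): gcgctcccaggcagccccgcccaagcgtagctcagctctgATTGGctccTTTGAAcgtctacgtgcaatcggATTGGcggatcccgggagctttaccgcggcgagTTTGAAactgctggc
Ube2c (chr2:164769809-164769928, plus strand): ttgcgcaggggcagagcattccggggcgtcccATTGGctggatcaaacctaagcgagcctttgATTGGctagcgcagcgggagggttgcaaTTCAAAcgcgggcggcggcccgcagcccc
Mki67 (chr7:135716380-135716499, minus strand): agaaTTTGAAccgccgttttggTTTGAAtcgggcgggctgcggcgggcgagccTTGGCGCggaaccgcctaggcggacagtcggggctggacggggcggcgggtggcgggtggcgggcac
The CHR of Cdc20 and the 2 of Cdk1 read on the strand of the gene, and those of Top2a and Ube2c on the other. Mki67 held 2 CHR matches and 1 E2F match in these bases, and no CCAAT box.
The same stretch is shown for 2 S-phase members, Mcm6, a subunit of the replicative helicase, and Rrm1, the large subunit of ribonucleotide reductase.
Mcm6 (chr1:128359706-128359825, minus strand): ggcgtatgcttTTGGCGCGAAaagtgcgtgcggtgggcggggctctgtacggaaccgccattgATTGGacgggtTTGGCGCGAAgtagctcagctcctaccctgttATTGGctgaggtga
Rrm1 (chr7:102441575-102441694, plus strand): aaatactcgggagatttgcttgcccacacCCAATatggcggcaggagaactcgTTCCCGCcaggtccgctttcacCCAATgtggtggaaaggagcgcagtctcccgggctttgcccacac
In Mcm6 both TTGGCGCGAA runs hold overlapping matches of either strand, and neither promoter held a CHR here.

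In total 38328760 UMIs were counted for the control and 35548396 for JPI-289. After removal of barcodes over 50% mitochondrial UMIs, 3759 control and 5046 JPI-289 cells remained, whose median depth was 2049 and 1865.5 UMIs, and 23 barcodes were shared by both. Cells were clustered without the members and named "X-like" from markers. Every marker of the PT, endothelial cell (EC), distal, stroma, neutrophil, macrophage and red blood cell lists was higher in its own class than in other cells of the same library. So were 6 and 10 of the 11 lymphocyte markers. The names were given from these same markers, so this is no separate check of them. A doublet caller marked 3 of 8805 cells and so had not worked. In barcodes with under 100 UMIs, taken as free RNA, the 38 genes summed to 338 CPM for the control and 311 CPM for JPI-289, where CPM is UMIs per 1000000 UMIs of the same cells or barcodes.

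Over all cells, the summed S-phase and G2/M genes were lower in the JPI-289 kidney, while Hmgb2 and Stmn1 were higher. The libraries differed in makeup, in the order control and JPI-289. PT-like cells were 49.7% and 33.8%, and neutrophil-like cells 5.27% and 13.0%. The part of this makeup in the values over all cells was not tested. The 15 S-phase members summed to 4197 UMIs (251 CPM) in the control against 2608 (146 CPM) after JPI-289, a log2 ratio of -0.78 (-0.85 to -0.71). The 21 G2/M members summed to 1407 UMIs (84.2 CPM) and 475 (26.6 CPM), a log2 ratio of -1.66 (-1.82 to -1.51). Hmgb2 and Stmn1 together summed to 1808 UMIs (108 CPM) and 3564 (199 CPM), a log2 ratio of 0.88 (0.80 to 0.97). These differences partly offset each other in the sum of all 38 genes, which was 443 and 372 CPM, a log2 ratio of -0.25 (-0.30 to -0.21). The ratio of this sum was 0.0713 with each cell weighted equally and 0.14 without a urothelium-led cluster described below, so its sign depended on these choices. Free RNA differed between the libraries in the same directions, on few UMIs. There the S-phase members stood at 227 and 131 CPM (100 and 45 UMIs), the G2/M members at 47.6 and 26.2 (21 and 9), and Hmgb2 with Stmn1 at 63.5 and 154 (28 and 53).

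Counted gene by gene, 25 of the 38 were lower by a log2 ratio of 1 or more in the JPI-289 kidney, where 21.1% of 14536 genes with at least 20 UMIs were. Hmgb2 was the only member higher by as much, as were 5.69% of genes. A further 11 lay between these limits, and Bub1, a spindle checkpoint kinase, had too few UMIs (11 and 2) to be measured. The median gene of all those measured had a log2 ratio of -0.22. A rare gene abundant in 1 library alone passes such a minimum more easily, so the count describes the genes and is not evidence on its own.

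**Figure D2:**
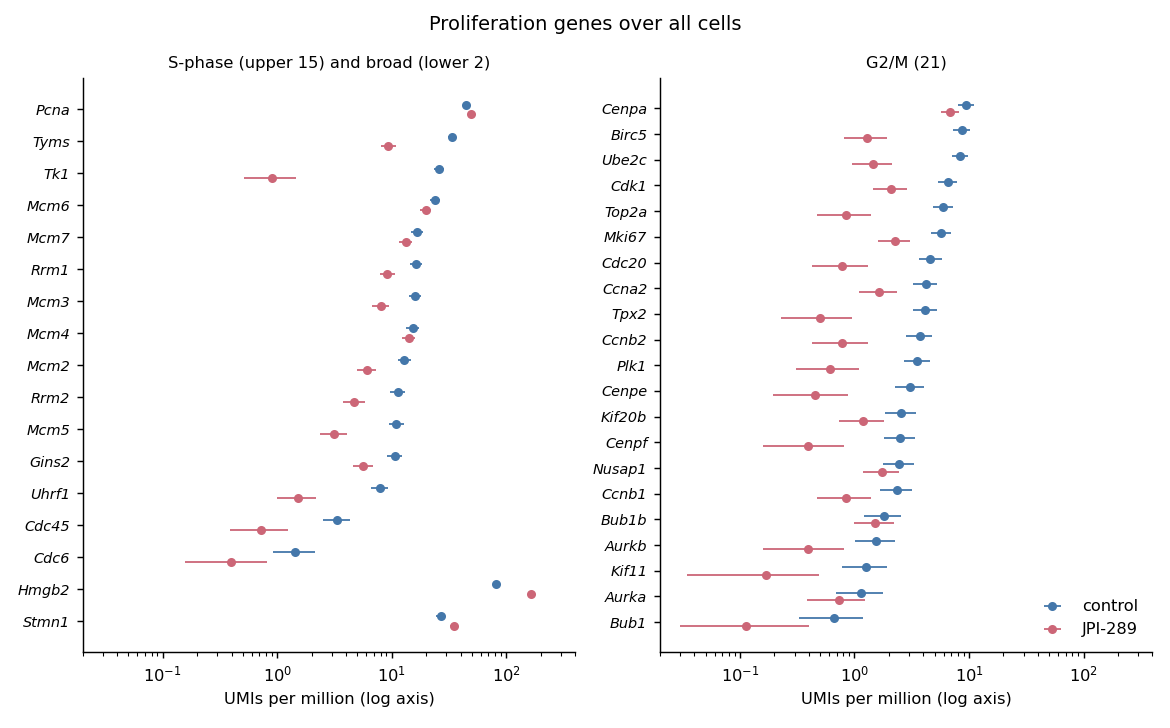
CPM (x axis, log) of each of the 38 genes over all cells of the control (blue) and JPI-289 (red) kidney, with exact 95% Poisson intervals of counting error. Most red points lie left of the blue ones, with Tk1 at 25.9 and 0.895, and Hmgb2 lies to the right at 81.4 and 164.

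Among the enzymes of nucleotide supply, Tk1, thymidine kinase 1 (chr11:117815526-117826092, minus strand), had 433 UMIs against 16 after JPI-289. Its log2 ratio of -4.81 (-5.67 to -4.14) was the lowest of the measured members. Tyms, thymidylate synthase, had 566 and 167 UMIs, a log2 ratio of -1.85 (-2.12 to -1.61). The small subunit of ribonucleotide reductase, Rrm2, had 189 and 84 UMIs (log2 ratio -1.26), and the large subunit, Rrm1, had 271 and 164 (-0.82). All 4 enzymes of this group were thus lower in the JPI-289 kidney, and their intervals did not reach 0.

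The 6 subunits of the replicative helicase, Mcm2 to Mcm7, differed unevenly. Mcm5 had 184 and 56 UMIs (log2 ratio -1.80), Mcm2 216 and 108 (-1.09), and Mcm3 269 and 143 (-1.01). Mcm7 had 280 and 238 UMIs (-0.33), Mcm6 396 and 353 (-0.26), and Mcm4 255 and 251 (-0.12, -0.38 to 0.14). The proteins form a ring in equal parts, while Mcm2, Mcm3 and Mcm5 transcripts were lower and the others differed little. Of the factors that load or activate the ring, Cdc45 had 56 and 13 UMIs (-2.16), Cdc6 24 and 7 (-1.80), and Gins2 177 and 101 (-0.90). Uhrf1, which maintains DNA methylation behind the fork, had 132 and 27 UMIs (-2.37). Pcna, the sliding clamp that also serves in DNA repair, had 749 and 880 UMIs, a log2 ratio of 0.14 (-0.01 to 0.28). It was the only S-phase member with a ratio above 0.

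Of the G2/M members, the proliferation marker Mki67 had 96 and 40 UMIs (log2 ratio -1.35), and Top2a, which untangles sister chromatids, 99 and 15 (-2.78). The cyclins and their kinase were lower, with Cdk1 at 110 and 37 UMIs (-1.66), Ccna2 at 70 and 29 (-1.35), Ccnb1 at 39 and 15 (-1.45) and Ccnb2 at 62 and 14 (-2.20). Cdc20 and Ube2c, which drive the anaphase-promoting complex, had 77 and 14 UMIs (-2.51) and 140 and 26 (-2.50). In this group no member was higher in the JPI-289 kidney.

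Among mitotic kinases and their partners, Birc5, or survivin, had 144 and 23 UMIs (-2.72), Plk1 59 and 11 (-2.47), Aurkb 26 and 7 (-1.92), and Aurka 19 and 13 (-0.63, -1.78 to 0.45). Tpx2, a spindle assembly factor and activator of Aurora A, had 69 and 9 UMIs (-2.97), and the checkpoint kinase Bub1b 30 and 27 (-0.25, -1.05 to 0.55). Of the spindle motors, Kif11 had 21 and 3 UMIs (-2.72) and Kif20b 43 and 21 (-1.11), and the microtubule binder Nusap1 had 41 and 31 (-0.49, -1.22 to 0.21). At the kinetochore, Cenpe had 51 and 8 UMIs (-2.70), Cenpf 42 and 7 (-2.60), and the centromeric histone Cenpa 158 and 123 (-0.46). Aurka, Bub1b and Nusap1 were the measured G2/M members whose intervals reached 0.

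Hmgb2, a chromatin protein that bends DNA (chr8:57511907-57515999, plus strand), had 1361 UMIs against 2936 after JPI-289, a log2 ratio of 1.01 (0.92 to 1.11). Stmn1, or stathmin, which destabilizes microtubules (chr4:134468320-134473843, plus strand), had 447 and 628 UMIs, a log2 ratio of 0.39 (0.22 to 0.57). Together they made up 1808 of the 7412 member UMIs in the control and 3564 of 6647 in the JPI-289 kidney. Processed pseudogenes of Pcna, Tyms and Stmn1 are annotated, and how reads shared with them were assigned was not tested.

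Most of the G2/M difference over all cells came from 1 small group of control cells. In a cluster led by urothelium genes (Psca, Krt5 and Upk1b), 61 control cells carried 881 of the 1407 G2/M UMIs of the library (62.6%). The 330 JPI-289 cells of this cluster carried 11 of 475 (2.32%). The G2/M level in the cluster was 761 CPM in the control and 11 CPM after JPI-289. Urothelium is the epithelium that lines the renal pelvis.

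The cells of this cluster differed between the 2 libraries in depth and in markers. Their median depth was 14011 UMIs in the control and 1497.5 after JPI-289, so counts of cells with a marker are not matched for depth. At least 2 of 5 urothelium markers, Upk1a, Upk1b, Upk2, Upk3a and Krt5, were detected in 15 control and 2 JPI-289 cells. Sprr2f, also on the urothelium list, was left out of this count and went the other way. It was detected in 43 of 61 control cells (1715 CPM) and 321 of 330 JPI-289 cells (4458 CPM) of the cluster. Of the 5 counted markers, Upk1a alone was detected in more JPI-289 cells (6) than control cells (3), with 14 against 349 UMIs. Krt5, of basal urothelium, had 1403 UMIs in control cells of the cluster against 1 after JPI-289. The collecting duct water channel Aqp2 had 5110 and 4992. The 15 control cells were deep, with a median of 36615 UMIs, and carried 856 G2/M UMIs, with 107 of Ube2c, 102 of Birc5, 68 of Mki67 and 67 of Top2a. As many as 34 of the 36 genes other than Hmgb2 and Stmn1 were detected in a single cell. In the 46 control cells with fewer markers the G2/M level was 38.3 CPM.

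Without this cluster, only 8 members were lower by a log2 ratio of 1 or more among 33 measured, where 20.6% of genes were, and Hmgb2 alone was higher, where 5.95% were. These were Tk1, Tyms, Mcm5, Cdc45 and Uhrf1 of S phase and Top2a, Cenpe and Tpx2 of G2/M. The G2/M sum was then 33.8 CPM in the control against 27.5 after JPI-289, a log2 ratio of -0.30 (-0.48 to -0.12), and Mki67 had 27 and 40 UMIs. The S-phase sum remained at 217 and 144 CPM, a log2 ratio of -0.60 (-0.67 to -0.52). Tk1 had 352 and 15 UMIs in the remaining cells and Tyms 506 and 159.

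In PT-like cells (1867 control and 1707 JPI-289) the S-phase members were lower and Hmgb2 and Stmn1 higher in the JPI-289 kidney. The S-phase sum was 1649 UMIs (201 CPM) and 957 (129 CPM), a log2 ratio of -0.64 (-0.75 to -0.52). The G2/M sum was small in both, with 209 UMIs (25.4 CPM) and 83 (11.2 CPM), a log2 ratio of -1.18 (-1.57 to -0.81). Hmgb2 and Stmn1 summed to 565 UMIs (68.7 CPM) and 1379 (186 CPM), a log2 ratio of 1.44 (1.29 to 1.58). The G2/M levels of PT-like cells were below those of free RNA in both libraries. Their S-phase levels were slightly below those of free RNA, and the level of Hmgb2 with Stmn1 was slightly above. The free RNA levels rest on few UMIs, so such small gaps cannot be read as differences. From markers of other classes, free RNA made up at most an estimated 2.50% of PT-like UMIs in the control and 1.84% after JPI-289. Subtracting it left the log2 ratio of the 38-gene sum in PT-like cells at 0.15. The ratios of the S-phase, G2/M, and Hmgb2 with Stmn1 sums run in opposite directions within it. They were not recomputed this way, so the 0.15 does not bear on each of them.

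Tk1 carried the widest gap, with 289 UMIs in PT-like cells of the control and 6 in those of the JPI-289 kidney (log2 ratio -5.33, -6.90 to -4.30). Tyms had 265 and 83 UMIs (-1.52), Mcm5 75 and 11 (-2.57), Cdc45 22 and 2 (-3.02) and Mcm3 65 and 16 (-1.84). Pcna went the other way, with 299 and 401 UMIs (0.57, 0.35 to 0.79), and the helicase subunits Mcm6 (113 and 127) and Mcm7 (131 and 133) had intervals that reached 0. Hmgb2 had 310 and 853 UMIs (1.61, 1.42 to 1.80) and Stmn1 255 and 526 (1.19, 0.98 to 1.42). In sums over PT-like cells, Pcna was thus the only S-phase member whose interval lay above 0.

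Of the 38 genes, 12 were lower in PT-like cells by a log2 ratio of 1 or more, beside 23.7% of 11380 genes, and 2 were higher, beside 8.96%. A further 7 lay between, and 17 had under 20 UMIs over both libraries. The median gene of all those measured in PT-like cells had a log2 ratio of -0.20. Among those 17, Top2a had 12 and 0 UMIs, Mki67 8 and 0, Kif11 7 and 0 and Cdc20 10 and 1. Cenpa had 5 UMIs in each, Ccnb1 had 6 and 7, and Bub1 had 0 in both. Cdk1 had 24 UMIs in each kidney. The interval left 0 for 7 G2/M members, namely Top2a, Mki67, Kif11, Cdc20, Birc5 (21 and 5), Ccna2 (16 and 4) and Kif20b (22 and 8), and a difference of the others was not detectable at this depth.

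**Figure D3:**
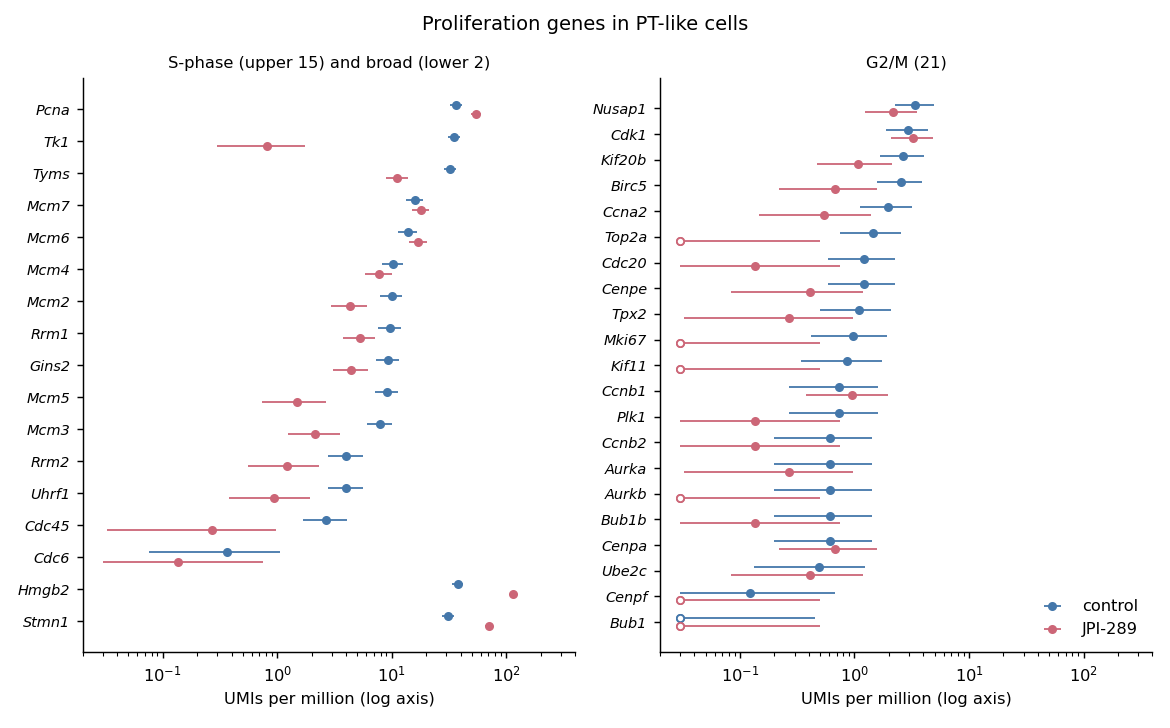
CPM (x axis, log) of each of the 38 genes in PT-like cells of the control (blue) and JPI-289 (red) kidney, with exact 95% Poisson intervals. Open points at the left edge stand for 0 UMIs. Tk1 lies at 35.2 and 0.809 and Tyms at 32.2 and 11.2, while Hmgb2 lies at 37.7 and 115.

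The PT-like cells of the kidneys fell into different clusters, so library and cluster cannot be told apart there. Clusters 1, 8, 12 and 13 held 946, 429, 229 and 225 control cells and at most 11 JPI-289 cells each, while clusters 0 and 5 held 1124 and 562 JPI-289 cells and 34 and 4 control cells. The S-phase sum ran from 126 to 297 CPM over the 4 control clusters and was 139 and 120 in the 2 JPI-289 clusters, so the ranges overlapped. The G2/M sum ran from 17.2 to 34.4 CPM in the control clusters and was 13.3 and 9.19 in the JPI-289 clusters. Hmgb2 and Stmn1 ran from 28.2 to 95.7 and stood at 201 and 173. The clusters also differed in 6 markers of injured PTs (Havcr1, Krt20, Sox9, Vcam1, Krt8 and Krt18). Their mean log2 ratio over the median cluster was 1.92 and 1.64 in the JPI-289 clusters and between -0.36 and 0.75 in the control clusters. The part of PT injury in the gene differences was not tested.

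The share of cells with 2 or more of the 38 genes was close in the kidneys. They made up 886 of 3759 control cells (23.6%) and 1140 of 5046 JPI-289 cells (22.6%), a difference of -0.98 points (-2.77 to 0.80). Among PT-like cells they were 419 of 1867 (22.4%) and 452 of 1707 (26.5%), a difference of 4.04 points (1.22 to 6.86). Red blood cell-like cells, which lack a nucleus, gave 2 of 76 (2.63%) and 2 of 125 (1.60%). Their median depth was 1534.5 and 1531 UMIs, against 2166 and 1760 UMIs in PT-like cells. The 7 red blood cell markers alone took up 796883 and 746740 CPM of these cells. Few of their UMIs were thus left for other genes, so their share is no baseline at equal depth. PT-like cells with 2 or more genes were deeper than the rest, with medians of 7934 and 9494 UMIs against 1573.5 and 1202. When each cell was thinned to 1000 UMIs, they were 55 of 1368 (4.02%) and 56 of 1154 (4.85%).

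The genes that made up these cells differed between the kidneys. In JPI-289 PT-like cells with 2 or more genes, Hmgb2 was present in 76.1% and Stmn1 in 56.4%, against 36.3% and 33.2% in the control. Tk1 was present in 34.4% of such control cells. Counted without Hmgb2 and Stmn1, PT-like cells with 2 or more of 36 genes were 318 (17.0%) in the control against 199 (11.7%) after JPI-289, a difference of -5.37 points (-7.66 to -3.08). After thinning they were 42 of 1368 (3.07%) and 12 of 1154 (1.04%), a difference of -2.03 points (-3.17 to -0.93). The direction over PT-like cells thus turned on these 2 genes.

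PT-like cells with 5 or more of the 36 genes were 54 of 1867 (2.89%, 2.18 to 3.76) in the control and 8 of 1707 (0.469%, 0.203 to 0.921) in the JPI-289 kidney. The richest PT-like cell held 23 of the 36 in the control against 7 after JPI-289. The 54 control cells were spread over clusters 1, 8, 12 and 13, with 19, 17, 16 and 2 of them. Cells with 3 or more G2/M members were 5 in the control and 0 of 1707 in the JPI-289 kidney, where a limit of 3 counts allows a share of up to 0.176%. This limits the cells in which 3 members were detected, at a median of 1760 UMIs, and not the dividing cells. After thinning, cells with 3 or more G2/M members were 0 of 1368 and 0 of 1154. Those with 5 or more of the 36 genes were then 5 of 1368 in the control and 0 of 1154 in the JPI-289 kidney.

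**Figure D4:**
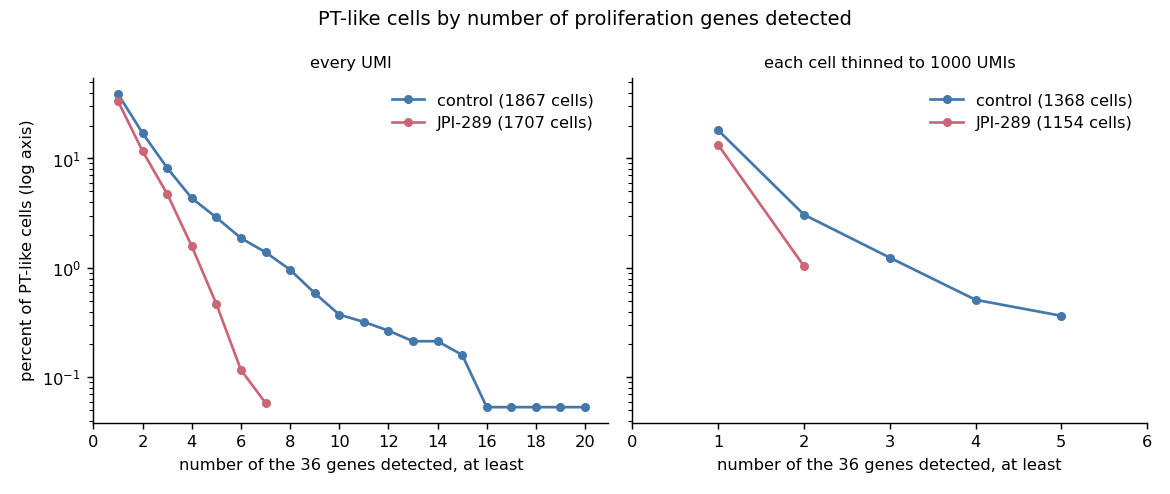
Percent of PT-like cells (y axis, log) with at least the given number of the 36 genes other than Hmgb2 and Stmn1 (x axis), from every UMI (left) and after thinning to 1000 UMIs (right). On the left, plotted up to 20 genes, the control curve reaches the end, with 1 cell from 16 genes on, and that of the JPI-289 kidney ends at 7. On the right the control curve ends at 5 and that of the JPI-289 kidney at 2.

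Genes that were not on the list bear on what the cells with many members express. In the 54 control PT-like cells with 5 or more of the 36, a list of 45 other S-phase genes stood at 1031 CPM, against 351 in the other control PT-like cells, a ratio of 2.94 (2.70 to 3.18). In the 8 such JPI-289 cells it stood at 394, against 340 (1.17, 0.92 to 1.45). A list of 48 other G2/M genes gave ratios of 1.15 (1.05 to 1.25) in the control and 1.44 (1.27 to 1.62) in the JPI-289 cells. Over all cells, Tubb4b alone held 5656 of the 13132 UMIs of this list in the control and 7204 of 13352 after JPI-289. The summed list is thus weighted to a few abundant genes, whose part in its ratios was not tested. PT-like cells with 2 or more of the 36 were also compared with the rest after thinning to 1000 UMIs. In the control they had 3.20 times (2.37 to 4.18) the level of the other S-phase genes. In the JPI-289 kidney they had 1.13 times (0.27 to 2.60), which rests on 12 cells and 4 UMIs. The intervals of the kidneys overlap. The ratios of the other G2/M genes were then 1.41 (1.00 to 1.89) in the control and 0.86 (0.37 to 1.56) in the JPI-289 cells. The latter rests on 12 cells and 9 UMIs. Its interval holds the 1.37 found with every UMI in JPI-289 cells with 2 or more of the 36. Whether the level was higher at equal depth thus could not be judged. In the control, cells rich in the listed genes were thus also richer in S-phase genes off the list, at equal depth.

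Tk1 was detected in 183 of 1867 control PT-like cells (9.80%) and 6 of 1707 JPI-289 cells (0.351%). Of the 183 cells, 129 (70.5%) held another of the 36 genes and 40 (21.9%) held a G2/M member. Of all 1867 control PT-like cells, 723 (38.7%) held at least 1 of the 36. These shares were not matched for depth. Tyms was detected in 219 (11.7%) and 76 (4.45%) PT-like cells. Hmgb2 was detected in 236 (12.6%) and 506 (29.6%), and after thinning in 4.31% and 11.4%. Among PT-like cells with Hmgb2, a G2/M member was found in 35 of 236 control cells (14.8%) against 44 of 506 JPI-289 cells (8.70%). These shares were not matched for depth either, and were not compared with those of all PT-like cells. Whether Hmgb2 goes with division in these cells was thus not tested.

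In EC-like cells (264 control and 324 JPI-289) the S-phase sum was 527 UMIs (308 CPM) and 399 (259 CPM), a log2 ratio of -0.25 (-0.44 to -0.06). Tyms alone made up 107 and 34 of these UMIs. The median log2 ratio of the 10 measured S-phase members was -0.06, so the sum does not stand for most of them. Of 12 members measured, none of them of G2/M, Tyms was the 1 lower by a log2 ratio of 1 or more, with 107 and 34 UMIs (-1.49, -2.10 to -0.93), beside 18.0% of genes. Hmgb2, with 110 and 232 UMIs (1.22), was the 1 higher, beside 5.35%. Mcm6 (77 and 86 UMIs), Mcm3 (61 and 61) and Pcna (97 and 89) had intervals that reached 0. The G2/M sum was 57 and 43 UMIs, a log2 ratio of -0.25 (-0.86 to 0.34). EC-like cells with 5 or more of the 36 were 18 of 264 (6.82%) and 6 of 324 (1.85%), a difference of -4.97 points (-8.80 to -1.71), and their median depth in all was 4413 and 3504 UMIs. After thinning no EC-like cell held as many in either kidney.

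Stroma-like cells (128 and 73) were led by Ren1, Acta2 and collagen genes. Their S-phase sum was 439 and 174 CPM, a log2 ratio of -1.32 (-1.76 to -0.93), and their G2/M sum 71 and 10 UMIs, a log2 ratio of -1.60 (-2.78 to -0.70). Tyms had 48 UMIs against 0 after JPI-289, and Mcm6 had 39 and 5. All 9 measured S-phase members had ratios below 0, with a median log2 ratio of -0.49. The size of the ratio of the S-phase sum thus does not stand for most of them. Of 11 members measured, 4 were lower by a log2 ratio of 1 or more, beside 13.9% of genes, and Hmgb2 was higher (49 and 48 UMIs, 1.14), beside 12.5%. Much of the control G2/M sum lay in few cells, since 2 stroma-like cells with 3 or more G2/M members held 44 of its 71 UMIs.

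In distal tubule and collecting duct-like cells (513 and 705) the S-phase level did not differ beyond counting error. Their S-phase sum was 148 and 159 CPM, a log2 ratio of 0.10 (-0.13 to 0.33), and their G2/M sum 22.8 and 20.2. Of 12 members measured, none of them of G2/M, none was lower by a log2 ratio of 1 or more, where 13.5% of genes were, and Hmgb2 (97 and 331 UMIs, 1.40) and Mcm4 (11 and 41, 1.49) were higher, beside 5.74%. Pcna had 72 and 125 UMIs (0.43), with an interval from 0.00 to 0.87.

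In macrophage-like cells (123 and 156) none of 7 measured members passed a log2 ratio of 1 in either direction, beside 17.8% of genes lower and 10.6% higher. The S-phase sum was 211 and 222 CPM and the G2/M sum 66.0 and 74.6. Tyms, with too few UMIs to be measured and named outside the rule given below, had 9 and 0. In neutrophil-like cells (198 and 656) most member UMIs were of Hmgb2, with 243 and 733 UMIs (548 and 451 CPM). Their S-phase sum was 21 and 77 UMIs, at 47.4 CPM in both, and their G2/M sum 5 and 60 UMIs (11.3 and 36.9 CPM), a log2 ratio of 1.58 (0.41 to 3.38). Mki67 had 0 and 15 UMIs there and Cenpa 5 and 30, while Top2a had 0 UMIs in the JPI-289 cells. No neutrophil-like cell held 5 or more of the 36 genes. Of 4 measured members none was lower by a log2 ratio of 1 or more, beside 10.5% of genes, and Mcm4, with 2 and 21 UMIs (1.23, -0.51 to 4.65), was higher, beside 11.2%.

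Lymphocyte-like cells could not be compared, with 8 control and 100 JPI-289 cells. The JPI-289 cells held 191 member UMIs (889 CPM), 54 of them of G2/M members, and 38 of these 54 lay in 1 cell with 16 of the 36 genes. Podocyte-like cells were 12 and 50 and held 2 and 15 member UMIs. Red blood cell-like cells held 12 and 22 member UMIs (83.9 and 95.3 CPM). Among clusters that took no name, the cluster led by Lyz2, Fn1 and Arg1 held 202 and 381 member UMIs (307 and 440 CPM), and the cluster led by Slc14a2 held 353 and 216 (576 and 546 CPM). The cluster led by Nrgn and Ccl21a held 156 and 101 (431 and 415 CPM), and that led by Neat1 and Malat1 held 49 and 245 (195 and 233 CPM).

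**Figure D5:**
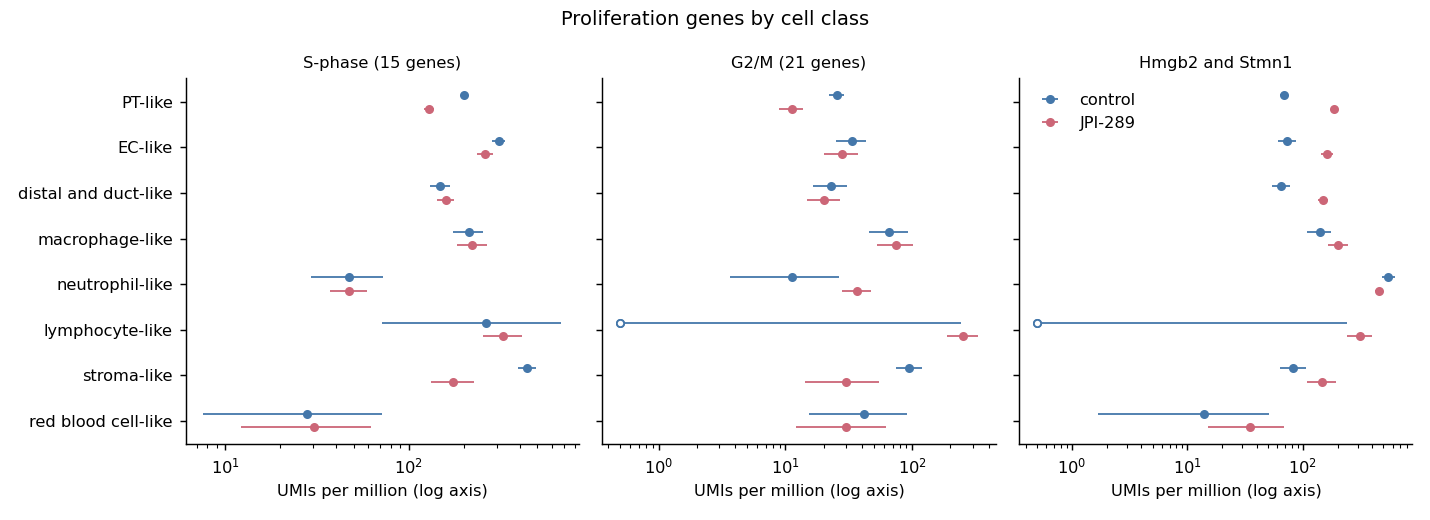
CPM (x axis, log) of the 15 S-phase members, the 21 G2/M members, and Hmgb2 with Stmn1 in each cell class of the control (blue) and JPI-289 (red) kidney, with exact 95% Poisson intervals and open points for 0 UMIs. S-phase levels lie at 201 and 129 in PT-like and 439 and 174 in stroma-like cells. The Hmgb2 and Stmn1 level is higher in the JPI-289 kidney in PT-like, EC-like, distal, stroma-like and macrophage-like cells, and lower in neutrophil-like cells.

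The 93 other S-phase and G2/M genes differed in both directions. Over all cells, 43 of 45 other S-phase genes were measured, of which 19 were lower by a log2 ratio of 1 or more and 1, Blm, was higher. Of the 48 other G2/M genes 42 were measured, of which 17 were lower and 1, Kif23, was higher. Among all genes 21.1% were lower and 5.69% higher. Hells, a chromatin remodeler, had 151 and 25 UMIs (-2.67) and Melk, a mitotic kinase, 30 and 0. Kif23, a cytokinesis motor, had 115 and 341 UMIs (1.47). Without the urothelium-led cluster 17 of 43 measured other S-phase genes were lower and 3 higher, and 9 of 33 other G2/M genes were lower and 3 higher, beside 20.6% and 5.95% of all genes. In PT-like cells 9 of 34 other S-phase genes were lower and 3 higher, and 6 of 23 other G2/M genes were lower and 6 higher. The shares of lower genes were thus close to the 23.7% of all genes in PT-like cells. Of all genes there, 8.96% were higher. The share of higher genes was close to this for the other S-phase genes and above it for the other G2/M genes.

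In PT-like cells the kinetochore genes Spc25 and Spc24 had 488 and 86 UMIs (-2.35) and 146 and 6 (-4.35), and the flap endonuclease Fen1 had 83 and 176 (1.23). These genes were named after their values were seen. Of 26 brakes, E2F and DREAM genes, 24 were measured over all cells, of which 2 were lower and 1 was higher, beside the 21.1% and 5.69% of all genes. In PT-like cells 8 of 20 measured were lower and 1 was higher, beside 23.7% and 8.96%. The gene higher over all cells was Cdkn1a, the CDK inhibitor p21, with 3863 and 11718 UMIs (231 and 656 CPM), a log2 ratio of 1.50 (1.45 to 1.56). In PT-like cells Cdkn1a had 588 and 2748 UMIs (2.37, 2.24 to 2.50), while the antiproliferative gene Btg2 had 1321 and 326 (-1.87) and Ccng1, a p53 target, 1646 and 970 (-0.61). E2f1, which drives S-phase genes, had 113 and 28 UMIs over all cells (-2.09, -2.76 to -1.50).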

How the data were processed

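Raw UMI counts of each gene in all barcodes of the 2 libraries were deposited, made per the labels' processing notes with Cell Ranger 5.0.1 on mm10. The counts were not filtered, scaled or corrected for doublets. Cells were called here from the counts, first with a minimum set at the 99th percentile over the 3000 deepest barcodes, divided by 10, then by comparing barcodes of at least 500 UMIs with those ranked 45000 to 90000 (10000 simulations, false discovery rate 0.01), and cells over 50% mitochondrial UMIs were removed. Python 3.11.15, scanpy 1.11.5 and leidenalg 0.10.2 were used (2000 variable genes without cell cycle genes, 30 components, 20 neighbours, resolution 1, no correction between libraries). The members, gene lists and markers were chosen with earlier results of these data known. The rule that named clusters was set after clusters were seen, and distal tubule and collecting duct markers were merged then. Levels were UMIs summed over cells per 1000000 (CPM), and log2 ratios added 0.5 UMIs to each sum. Genes with at least 20 UMIs over both libraries counted as measured. Intervals were exact Poisson or binomial, with a score interval for differences of shares, and cover counting error only. With 1 library per group no test was made. Named genes were all 38 members over all cells and, within a class or list, mostly those with most UMIs or the largest ratios. Some others, among them genes under the minimum of 20 UMIs, were named outside this rule. The interval and ratio script was tested on simulated data. Cell calling, depth, mitochondrial limit, free RNA, scaling, resolution, members and minimum counts were varied. The public normal kidneys of the study were not used here. Promoters of Aurkb, Tpx2, Mcm4, Ccna2, Gins2 and Stmn1 were not analysed here.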

Additional observations from a re-analysis of the deposited data

How the results depend on the processing

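No paired analysis was possible because each group was 1 library. Of the values computed under another setting, 137 moved by less than their counting interval, or within 1.5 times for a count, 30 moved further and 10, whose reported interval had left 0, changed sign. Signs also changed among values whose reported interval reached 0. Settings that split the members by role, asked for 5 genes, joined thinning with leaving genes out, or left out the urothelium-led cluster were chosen after seeing the data. Values are in the order reported and then changed, and the causes were not tested.

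The log2 ratio of the 38-gene sum over all cells, -0.25, was -0.33 with the first step of cell calling alone, 0.0713 with each cell weighted equally and 0.14 without the urothelium-led cluster. Without Hmgb2 and Stmn1 it was -0.96, and with S-phase or G2/M members alone -0.78 and -1.66. In PT-like cells 0.15 (0.06 to 0.23) became -0.69, -0.64 and -1.18 under these 3 choices. In EC-like cells 0.12 (-0.04 to 0.27) became -0.25 under each. With G2/M members alone the interval of this -0.25 reached 0 (-0.86 to 0.34). In distal and duct-like cells 0.48 (0.31 to 0.65) became 0.0675 (-0.15 to 0.28), 0.10 (-0.13 to 0.33) and -0.17 (-0.80 to 0.46). It was 0.23 with at least 1000 UMIs per cell and 0.22 with at most 20% mitochondrial UMIs. In neutrophil-like cells -0.17 (-0.37 to 0.03) became 0.50 (-0.09 to 1.19) without Hmgb2 and Stmn1. It was 1.58 (0.41 to 3.38) with G2/M members alone. In stroma-like cells -0.81 (-1.12 to -0.52) became -1.38, -1.32 and -1.60, and was -0.38 at a Leiden resolution of 0.5.

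The difference in the share of cells with 2 or more members, -0.98 points over all cells, was -6.20 without Hmgb2 and Stmn1. In PT-like cells 4.04 points became 8.98 with the first step alone and 7.99 with at least 1000 UMIs per cell. Thinned, the difference was 0.83 (-0.78 to 2.50). Without Hmgb2 and Stmn1 it was -5.37, and without them and thinned -2.03. For 5 or more members it was -0.98 (-2.19 to 0.24). In EC-like cells -6.03 (-14.03 to 2.05) became -15.97 (-25.03 to -6.40) with the first step alone. It was -15.38 (-23.02 to -7.54) without Hmgb2 and Stmn1 and 3.14 (-0.59 to 6.81) thinned. In distal and duct-like cells 5.01 (0.56 to 9.31) became -0.11 (-1.88 to 1.46) for 5 or more members. It was 0.27 (-1.96 to 2.13) without Hmgb2 and Stmn1 and thinned. In stroma-like cells -15.20 (-26.52 to -2.22) became -32.31 (-49.14 to -11.88) with the first step alone. It was -2.16 (-12.56 to 8.88) at a resolution of 0.5. The count of lower members over all cells, 25 of 37 measured, was 8 of 33 without the urothelium-led cluster. In PT-like cells 12 of 21 measured became 6 of 13 with at least 50 UMIs and 22 of 35 with at least 5. The share of all genes that were lower at these other minimums was not computed. Macrophage-like values did not move beyond their intervals under any setting run.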
